A study of Mus musculus with 24 samples.

Results

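The genes described here are 10 natural killer and cytotoxic lymphocyte genes, chosen by name: Tbx21, Ccl5, Gzma, Gzmb, Prf1, Nkg7, Klrd1, Klrk1, Ncr1 and Eomes. Their probes were those carrying the symbol in the array's annotation. Of the 10 genes, 9 had a probe, with 13 probes among the 25697 of the array, and no probe carried the symbol Gzma, which was not analysed here. RNA of normal lung parenchyma from 24 mice of the AIRmax and AIRmin lines had been hybridised to Illumina bead arrays, and each mouse had its own array. These lines were selected for a strong and a weak acute inflammatory response, and each direction of selection is represented by 1 line. The groups were 6 AIRmax urethane, 6 AIRmax saline, 6 AIRmin urethane and 6 AIRmin saline mice, with 3 females and 3 males in each. Urethane, a lung carcinogen of mice, had been injected into the peritoneum at 1 mg per g of body weight, 2 times with 48 h between. Saline mice received the same number of injections of vehicle, and lungs were taken 21 days later.

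Natural killer cells and CD8 T cells kill target cells by releasing granules that hold perforin, which opens the target membrane, and granzymes, proteases that start cell death once inside. The transcription factors T-bet (Tbx21) and Eomesodermin (Eomes) drive the cytotoxic programme, and receptors of the Klr and Ncr families tell the cell whether to fire. The lung holds many such cells in its vessels and walls, so the transcripts are read here from a minority of cells in whole tissue. Fewer cells of a type and less RNA per cell cannot be told apart in such bulk samples.

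A probe was called above background when its log2 signal exceeded 7.86, a limit taken from the dim end of all values. Probes above it on at least 3 arrays were tested, which kept 18922 probes of 13590 genes. Of the 13 probes of the cytotoxic genes, 10 were kept, covering 6 genes. Tbx21, Ccl5, Nkg7 and Klrd1 had 1 tested probe each, Prf1 had 2 and Klrk1 had 4. Probes of 1 gene are numbered from the brightest to the dimmest. Levels of different probes are not compared with each other.

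The libraries also differed in transcripts of other tissues. A list score is the mean log2 signal of a list's genes, each relative to its median mouse. The score of 15 stratified squamous epithelium genes was above 1 in 10 mice: AIRmax urethane mice 2 and 4, AIRmax saline mouse 9, AIRmin urethane mice 7 and 17, and AIRmin saline mice 3, 10, 19, 20 and 23. AIRmax urethane mouse 4 also had a hepatocyte score of 6.85. AIRmin saline mouse 20, labelled female, had the Y-linked transcripts of a male. Beside each called difference between the lines, the value without the 10 mice of high squamous score is given for the cytotoxic genes.

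The first comparison asked how the lines differed. All 6 measurable genes were higher in AIRmax lungs at 1 probe or more, and 5 of the 6 at their brightest probe, the exception being Prf1. The difference was largest for the chemokine Ccl5, at 1.08 ± 0.16 (log2, SE), a 2.12-fold difference, and smallest among the probes that passed for the activating receptor Klrk1, at 0.24 ± 0.07. Of the 10 probes, 6 were higher in AIRmax and 0 lower, and the same call was made for 6.37% of all tested probes. The genes and the lists below were chosen with earlier results of these data known. Counts set beside the share of all probes or genes are therefore description only. All 10 differences were above 0, with a median of 0.28, where 49.8% of all probes lay above 0 with a median of -5e-04. These are limma tests over all mice, and a call is an adjusted p under 0.05.

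Tbx21 encodes T-bet, the T-box factor that directs type 1 and cytotoxic programmes in natural killer and T cells. Its log2 signal ran from 8.87 to 9.29 with a median of 9.04 in AIRmax urethane mice, and from 8.34 to 8.92 with a median of 8.43 in AIRmin urethane mice. In saline mice it ran from 8.61 to 9.25 (median 8.89) in AIRmax and from 8.05 to 8.64 (median 8.32) in AIRmin. Every one of the 12 AIRmax mice lay above the AIRmin median, and 10 of 12 AIRmin mice lay below the lowest AIRmax mouse. The exceptions were AIRmin urethane mouse 17 and AIRmin saline mouse 23. Over all mice Tbx21 averaged 8.99 ± 0.23 in AIRmax and 8.41 ± 0.21 in AIRmin (SD, n = 12 each), a difference of 0.58 ± 0.08 (adjusted p = 0.000105). Leaving out each mouse in turn kept the Tbx21 difference between 0.55 and 0.63. Without the 10 mice of high squamous score it was 0.82 (adjusted p = 0.00776).

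Ccl5, also called RANTES, is a chemokine that activated T cells and natural killer cells secrete and that draws leukocytes. Its log2 signal ran from 12.99 to 14.08 with a median of 13.65 in AIRmax urethane mice, and from 11.76 to 13.19 with a median of 12.86 in AIRmin urethane mice. In saline mice it ran from 12.26 to 14.19 (median 13.54) in AIRmax and from 11.80 to 12.72 (median 12.22) in AIRmin. AIRmax saline mouse 9 and AIRmax urethane mouse 5 were the only AIRmax mice within the AIRmin range, and 10 of 12 AIRmax mice exceeded every AIRmin mouse. Ccl5 averaged 13.54 in AIRmax and 12.46 in AIRmin (adjusted p = 0.000122), and the difference was 1.31 without the 10 mice of high squamous score (adjusted p = 0.0265).

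**Figure D1:**
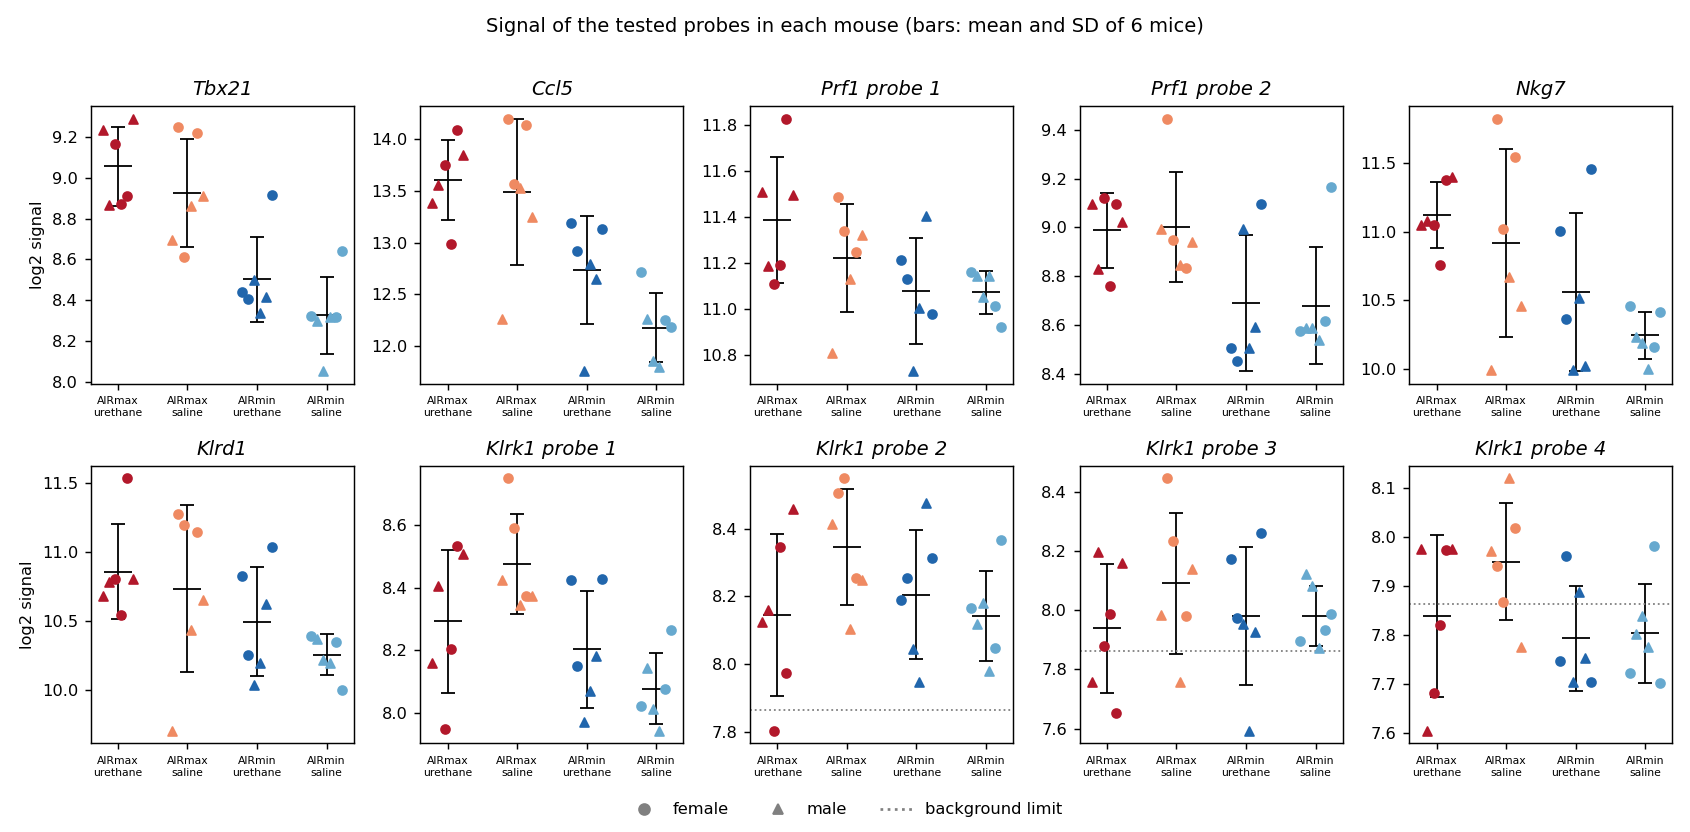
Log2 signal (y axis) of the 10 tested probes in each mouse, with females as circles and males as triangles, and AIRmax groups left of AIRmin groups. Black bars give the mean and SD of 6 mice and the dotted line the background limit of 7.86; Tbx21 and Ccl5 separate the lines with few mice overlapping, while Klrk1 probes 2 to 4 overlap throughout.

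Nkg7, a granule membrane protein of natural killer and T cells needed for efficient degranulation, differed by 0.62 ± 0.12 (adjusted p = 0.00272). It ran from 10.76 to 11.40 with a median of 11.06 in AIRmax urethane mice, and from 9.99 to 11.46 with a median of 10.44 in AIRmin urethane mice. In saline mice it ran from 9.99 to 11.82 (median 10.84) in AIRmax and from 10 to 10.46 (median 10.21) in AIRmin. The lines overlapped: AIRmax saline mouse 9 had the lowest signal of its line, and AIRmin urethane mouse 17 exceeded all but 2 AIRmax mice. The Nkg7 call ended without the mice of high squamous score, where the difference was 0.77 (adjusted p = 0.128), and with 3 scores of other tissues as covariates, where it was 0.50 (adjusted p = 0.119).

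Prf1, which encodes perforin, differed less and not alike at its probes. Probe 1 averaged 11.30 in AIRmax and 11.07 in AIRmin, a difference of 0.23 ± 0.09 that did not pass (adjusted p = 0.0954). Probe 2 averaged 8.99 in AIRmax and 8.69 in AIRmin, a difference of 0.31 ± 0.09 that passed (adjusted p = 0.0356). Across the 24 mice these probes correlated at r = 0.235, and which of them reads perforin RNA better was not tested. The probe 2 call was lost in 15 of the 24 fits that left out 1 mouse, with adjusted p up to 0.0697: AIRmax urethane mice 1, 6 and 16, AIRmax saline mice 9, 11 and 24, AIRmin urethane mice 7, 8, 14 and 15, and AIRmin saline mice 3, 10, 18, 19 and 20. Probe 1 gained a call without AIRmax urethane mouse 4 (adjusted p = 0.0479) or AIRmin urethane mouse 15 (0.0396). With mouse 20 fitted as a male, probe 2 had an adjusted p = 0.0535. The probe 2 call also ended without the mice of high squamous score, where the difference was 0.40 (adjusted p = 0.211), and with that score fitted as a covariate, where it was 0.34 (adjusted p = 0.0666). With the squamous, muscle and hepatocyte scores as covariates the probe 2 difference was 0.14 (adjusted p = 0.604).

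Among the receptors, Klrd1 encodes CD94, which pairs with NKG2 chains to read the class I molecule Qa-1. It averaged 10.80 ± 0.47 in AIRmax and 10.38 ± 0.31 in AIRmin (SD, n = 12 each), a difference of 0.42 ± 0.12 (adjusted p = 0.0292). It ran from 10.54 to 11.53 with a median of 10.79 in AIRmax urethane mice, and from 10.03 to 11.04 with a median of 10.44 in AIRmin urethane mice. In saline mice it ran from 9.71 to 11.28 (median 10.90) in AIRmax and from 10.004 to 10.395 (median 10.29) in AIRmin. The lowest of all 24 values belonged to AIRmax saline mouse 9, and 11 of 12 AIRmax mice lay above the AIRmin median. Leaving out AIRmax saline mouse 21 or 24, or AIRmin urethane mouse 8 or 13, ended the Klrd1 call (adjusted p 0.0515 to 0.0562). The Klrd1 call also ended without the mice of high squamous score, where the difference was 0.51 (adjusted p = 0.223), with that score fitted as a covariate (0.43, adjusted p = 0.0733), with 3 scores (0.37, adjusted p = 0.253) and with no sex term (adjusted p = 0.0829).

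Klrk1 encodes NKG2D, an activating receptor for stress-induced ligands. Its probes lay close to background: probe 1 exceeded the limit on all 24 arrays, probes 2 and 3 on 23 and 20, and probe 4 on 11. Probe 1 averaged 8.38 in AIRmax and 8.14 in AIRmin, with 11 of 12 AIRmax mice above the AIRmin median (adjusted p = 0.0203). Probes 2, 3 and 4 differed by 0.07, 0.03 and 0.10, with adjusted p of 0.59, 0.817 and 0.306. Over 24 mice probe 1 correlated at r = 0.631 with probe 2, at 0.528 with probe 3 and at 0.296 with probe 4, and probes 3 and 4 at -0.275. Probes of 1 gene that disagree leave the size of the Klrk1 difference uncertain. The probe 1 call ended without the mice of high squamous score, where the difference was 0.32 (adjusted p = 0.173), and with that score fitted as a covariate, where it was 0.23 (adjusted p = 0.0839).

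**Figure D2:**
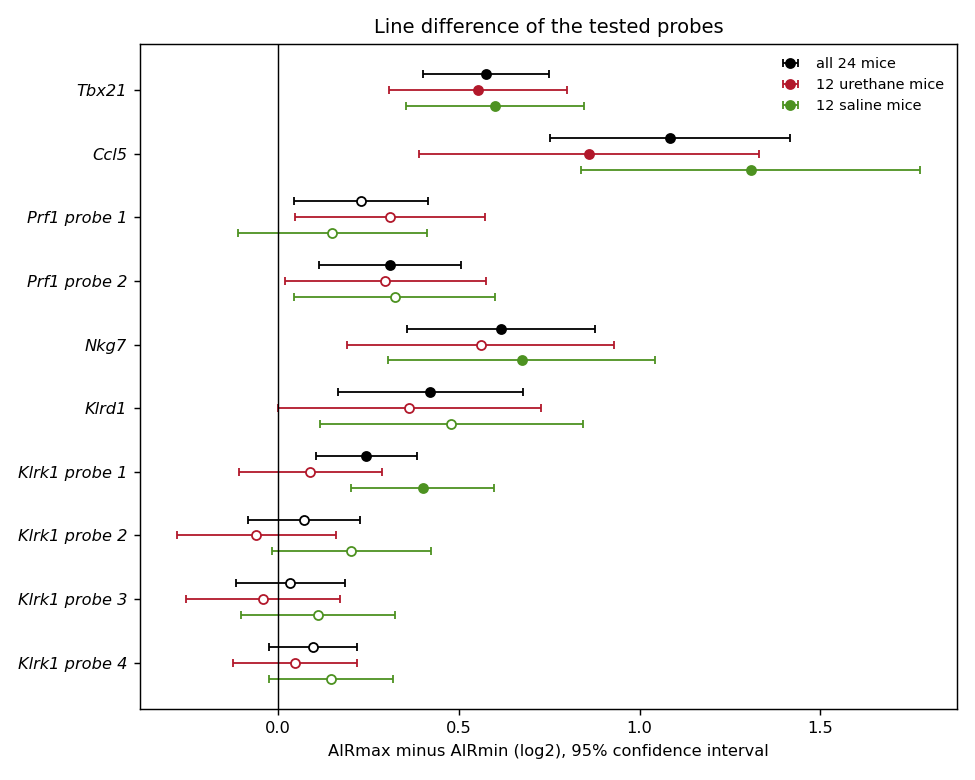
AIRmax minus AIRmin difference (x axis, log2) of the 10 tested probes in all, urethane and saline mice, with 95% confidence intervals; filled points passed an adjusted p of 0.05. Tbx21 and Ccl5 are filled in all 3 comparisons, and Klrk1 probe 1 stands at 0.09 in urethane and 0.40 in saline mice.

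Gzmb, Ncr1 and Eomes gave no measurable signal. Gzmb encodes granzyme B, the main death-inducing protease of the granule, and its highest log2 signal over 24 arrays was 7.51. Ncr1 encodes NKp46, the receptor that marks natural killer cells most specifically, and reached 7.43. Eomes, the partner of T-bet in natural killer cell maturation, reached 7.86 in AIRmax urethane mouse 2 and did not exceed the limit. These probes were at or below background in every group, so no line or urethane difference is given for them. The 6 measurable genes are all ones that activated CD8 T cells express as well, so these probes alone do not mark natural killer cells.

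T-bet and Runx factors bind short motifs near cytotoxic genes. The 300 bases around the start site (250 before and 50 after) were therefore read from RefSeq (build GRCm38.p6) for the genes called between the lines. The table held 9 windows for 8 of the 10 genes, and Ccl5 and Klrd1 had none. Of the 8, Tbx21, Prf1, Nkg7 and Klrk1 are shown, since these were the ones higher in AIRmax at 1 probe or more. Capitals mark the T-box letters GGTGTGA and the Runx letters TGTGGT on either strand, positions count from the start site, and each sequence runs 5′ to 3′ along the gene.
Tbx21 (chr11:97115282-97115581, minus strand): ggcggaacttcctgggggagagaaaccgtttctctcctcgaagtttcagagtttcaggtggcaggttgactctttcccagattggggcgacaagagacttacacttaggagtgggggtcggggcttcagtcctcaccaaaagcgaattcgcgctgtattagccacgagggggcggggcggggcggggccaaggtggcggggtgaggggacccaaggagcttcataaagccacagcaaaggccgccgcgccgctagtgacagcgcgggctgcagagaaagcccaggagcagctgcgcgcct
Prf1 (chr10:61297586-61297885, plus strand): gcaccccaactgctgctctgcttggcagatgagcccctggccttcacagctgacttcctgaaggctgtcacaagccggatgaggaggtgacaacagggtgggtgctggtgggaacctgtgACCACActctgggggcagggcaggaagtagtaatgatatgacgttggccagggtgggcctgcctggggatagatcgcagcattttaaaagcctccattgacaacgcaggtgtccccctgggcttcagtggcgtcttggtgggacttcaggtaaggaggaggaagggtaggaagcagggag
Nkg7 (chr7:43436888-43437187, plus strand): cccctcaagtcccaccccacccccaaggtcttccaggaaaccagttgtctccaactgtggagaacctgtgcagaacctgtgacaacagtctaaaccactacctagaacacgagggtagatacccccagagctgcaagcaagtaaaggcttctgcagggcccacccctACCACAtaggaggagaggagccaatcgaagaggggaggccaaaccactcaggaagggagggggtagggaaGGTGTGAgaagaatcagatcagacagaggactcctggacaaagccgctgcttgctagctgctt
Klrk1 (chr6:129623815-129624114, minus strand): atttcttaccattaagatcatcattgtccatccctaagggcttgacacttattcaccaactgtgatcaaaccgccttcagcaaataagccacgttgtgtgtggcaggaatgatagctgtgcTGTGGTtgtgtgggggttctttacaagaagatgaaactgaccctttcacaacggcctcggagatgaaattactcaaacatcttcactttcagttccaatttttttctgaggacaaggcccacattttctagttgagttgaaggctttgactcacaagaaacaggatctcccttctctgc
The Nkg7 window held GGTGTGA at -13 and the Runx letters, on the opposite strand, at -83. Prf1 held the Runx letters at -130, also on the opposite strand, and Klrk1 at -129 on the strand shown, and the Tbx21 window held neither. Of 32851 RefSeq promoters of the same length, 3.98% held GGTGTGA and 16.8% held TGTGGT on either strand. The shorter T-box letters GTGTGA, which lie within the longer motif, occurred in 14.5% of promoters and also in the windows of Ncr1 and Gzmb. These matches are letters in a window and say nothing of binding.

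Within urethane mice, Tbx21 and Ccl5 were higher in AIRmax, and within saline mice Tbx21, Ccl5, Nkg7 and Klrk1 probe 1 were. In urethane mice this made 2 of 10 probes, where 1.54% of all probes were called higher, and in saline mice 4 of 10, against 3.27%. The urethane and saline mice are different animals, so the same direction in both sets was measured separately. Tbx21 differed by 0.55 ± 0.12 in urethane mice (adjusted p = 0.0104) and by 0.60 ± 0.12 in saline mice (adjusted p = 0.00447). Ccl5 differed by 0.86 ± 0.22 in urethane mice (adjusted p = 0.0378) and by 1.31 ± 0.22 in saline mice (adjusted p = 0.0014). Most of these calls ended in fits that left out the mice of high squamous score or took scores of other tissues as covariates. Whether the other tissues or the smaller number of mice ended them was not tested. Without the mice of high squamous score Tbx21 stayed called in urethane mice (0.68, adjusted p = 0.0342), but the Ccl5 call there ended (0.96, adjusted p = 0.125). The same fit left 1 AIRmin saline mouse, assumed to vary like the other groups, and ended the saline calls of Tbx21 (0.96, adjusted p = 0.164), Ccl5 (1.66, adjusted p = 0.268), Nkg7 (0.70, adjusted p = 0.736) and Klrk1 probe 1 (0.40, adjusted p = 0.611). With the squamous, muscle and hepatocyte scores as covariates, Tbx21 differed by 0.38 in urethane mice (adjusted p = 0.17) and by 0.52 in saline mice (adjusted p = 0.154). Ccl5 differed in that fit by 0.74 in urethane mice (adjusted p = 0.23) and by 1.22 in saline mice (adjusted p = 0.128), so neither passed within a treatment.

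The call of Ccl5 in urethane mice ended in 9 fits that left out 1 mouse: AIRmax urethane mouse 1, 2, 4, 6 or 16, or AIRmin urethane mouse 7, 8, 13 or 17 (adjusted p 0.0519 to 0.102). It ended too with only the compared arrays (adjusted p = 0.0775), with no sex term (0.0903), with array weights (0.0861) and with the T cell score (0.0953). Nkg7 differed by 0.56 in urethane mice, which did not pass (adjusted p = 0.0876) and passed without AIRmin urethane mouse 17 (adjusted p = 0.0304). Its difference of 0.67 in saline mice passed (adjusted p = 0.0265), but not without AIRmax saline mouse 11, 21, 22 or 24 or AIRmin saline mouse 19 or 20 (adjusted p 0.0565 to 0.0754), with a squamous covariate (0.72, adjusted p = 0.169) or 3 scores (0.61, adjusted p = 0.264), or with no sex term (adjusted p = 0.135). Klrd1 differed by 0.48 ± 0.17 in saline mice (adjusted p = 0.114) and passed without AIRmax saline mouse 9, where it differed by 0.62 (adjusted p = 0.0278).

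Klrk1 probe 1 was the only member probe without overlap in a treatment. In urethane mice it ran from 7.95 to 8.53 in AIRmax and from 7.97 to 8.43 in AIRmin, and the groups overlapped. In saline mice it ran from 8.34 to 8.75 in AIRmax and from 7.94 to 8.26 in AIRmin, so all 6 AIRmax mice exceeded all 6 AIRmin mice, as for 1.94% of all probes. The line difference was 0.09 ± 0.09 in urethane mice (adjusted p = 0.682) and 0.40 ± 0.09 in saline mice (adjusted p = 0.0156). The test of the difference between them is the interaction of line and treatment, at -0.31 ± 0.13 with an adjusted p = 0.735, so the lines were not shown to respond differently. Of the AIRmin saline mice, 5 of 6 had high squamous scores. With the squamous score as a covariate Klrk1 probe 1 differed by 0.36 in saline mice (adjusted p = 0.199).

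The second comparison asked whether urethane changed these genes after 21 days. No member probe passed in either line or over both. Over all mice 0 of 10 probes were called, where 0.703% of all probes were. In AIRmax it was 0 of 10 against 0.201%, and in AIRmin 0 of 10 against 0.254%. At an unadjusted p under 0.05 in limma, 1, 0 and 1 of the 10 probes passed in the 3 comparisons, in both cases Ccl5. Ccl5 averaged 12.74 in AIRmin urethane mice and 12.18 in AIRmin saline mice, a difference of 0.56 ± 0.22 (adjusted p = 0.369) with a 95% confidence interval of 0.09 to 1.03. In AIRmax it averaged 13.60 in urethane mice and 13.49 in saline mice, a difference of 0.11 with an interval of -0.36 to 0.58. The groups overlapped in both lines.

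For Tbx21 the urethane difference was 0.13 in AIRmax, with a 95% confidence interval of -0.12 to 0.38, and 0.18 in AIRmin, with an interval of -0.07 to 0.42. Nkg7 differed by 0.20 in AIRmax and by 0.32 in AIRmin, with intervals of -0.17 to 0.57 and -0.05 to 0.68. Prf1 probe 1 differed by 0.16 in AIRmax and by 0.00 in AIRmin, and probe 2 by -0.01 and 0.01. The 4 Klrk1 probes were below 0 in AIRmax, from -0.20 to -0.11, and between -0.01 and 0.13 in AIRmin. Klrd1 differed by 0.12 in AIRmax and by 0.24 in AIRmin, with intervals of -0.24 to 0.49 and -0.12 to 0.60. The intervals of Klrk1 probe 1 were -0.38 to 0.01 in AIRmax and -0.07 to 0.32 in AIRmin. The line difference of Klrd1 over all mice, 0.42, lies inside both of its intervals. So does that of Prf1 probe 1, 0.23, with intervals of -0.10 to 0.43 in AIRmax and -0.26 to 0.27 in AIRmin. The line differences of Nkg7, 0.62, and Klrk1 probe 1, 0.24, each lie inside the AIRmin interval only. Urethane changes of those sizes are therefore not excluded there.

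**Figure D3:**
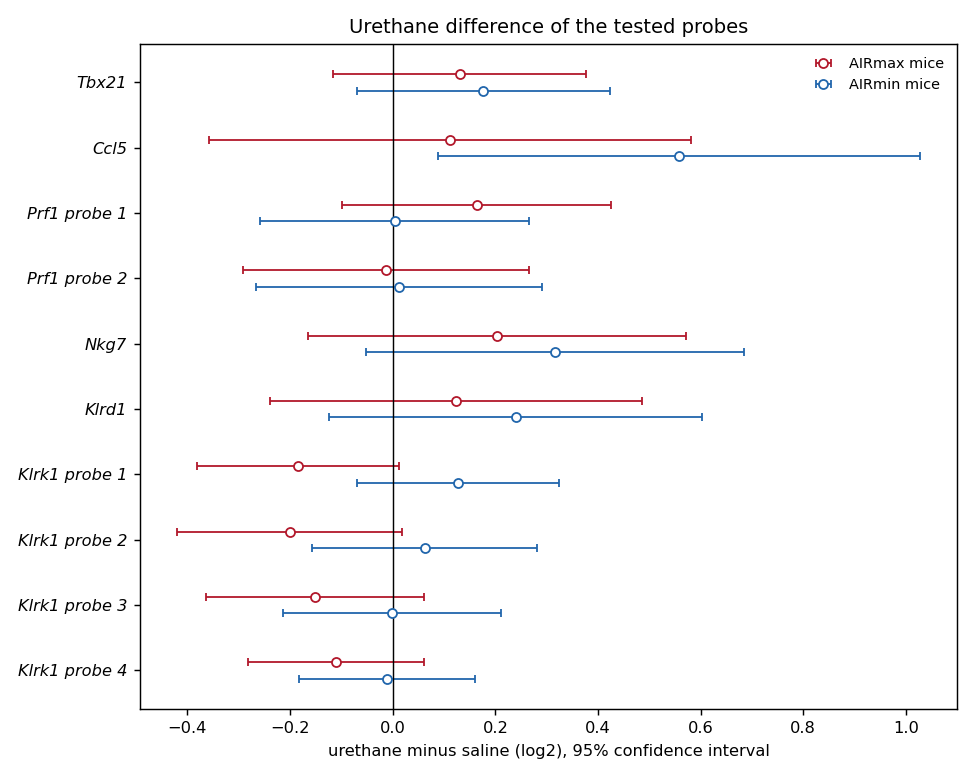
Urethane minus saline difference (x axis, log2) of the 10 tested probes in AIRmax and AIRmin mice, with 95% confidence intervals. No point is filled, since no probe passed; the AIRmin interval of Ccl5, from 0.09 to 1.03, lies above 0 before adjustment.

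The interaction of line and treatment was called for 0 of 10 probes and for 0.0% of all tested probes, though 1184 of these had an unadjusted p under 0.05. Among the member probes 1 had such a p, Klrk1 probe 1. For Ccl5 the interaction was -0.45 ± 0.32 (adjusted p = 0.874) and for Tbx21 -0.05 ± 0.17 (adjusted p = 0.979). In 5 of the 10 probes the group means ran from high to low in the order AIRmax urethane, AIRmax saline, AIRmin urethane and AIRmin saline, namely Tbx21, Ccl5, Prf1 probe 1, Nkg7 and Klrd1. Neighbours of 1 line in that order are the urethane comparisons, which did not pass, and AIRmax saline was not tested against AIRmin urethane.

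Females had higher values than males at 9 of 10 probes, but none passed, where 0.111% of all probes did. The females include AIRmin saline mouse 20, labelled female but with the Y-linked transcripts of a male. With it fitted as a male 0 members were called. Nkg7 averaged 10.95 ± 0.53 in females and 10.47 ± 0.49 in males (SD, n = 12 each), a difference of 0.49 ± 0.12 (adjusted p = 0.12). Ccl5 differed by 0.51 (adjusted p = 0.178) and Klrd1 by 0.39 (adjusted p = 0.191), and these 3 were the probes with an unadjusted p under 0.05 in limma. Among AIRmax saline mice the 3 females lay above the 3 males for Ccl5, Nkg7 and Klrd1. Without AIRmin urethane mouse 8, Nkg7 was called, at 0.56 higher in females (adjusted p = 0.0478), and no other member was called in any fit that left out 1 mouse. All 17 tested T cell markers were above 0 in the same comparison with a median of 0.41 and none called, and all 8 platelet markers were below 0 with a median of -0.70. All 15 squamous, 18 skeletal muscle and 12 hepatocyte genes were above 0 too, with medians of 0.88, 0.94 and 0.49. Of 9 neutrophil markers 1 was above 0, with a median of -0.42. Their part in the sex difference of the cytotoxic genes was not tested.

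The cytotoxic genes also varied together between mice. Over 24 mice Ccl5 correlated at r = 0.893 with Nkg7 and at 0.840 with Klrd1, and Nkg7 with Klrd1 at 0.853. After the means of the 8 combinations of line, sex and treatment were subtracted, these were 0.727, 0.731 and 0.624. Tbx21 kept r = 0.574 with Nkg7 but only 0.267 with Ccl5 and 0.162 with Klrd1. The pairs share arrays and tissue, and these are 45 pairs described without a test. Within AIRmax saline mice the score of the 6 genes ran from -0.40 in mouse 9 to 0.75 in mouse 11, a wider range than the -0.48 to -0.20 of AIRmin saline mice.

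Outside the 10 genes, the genes whose signal followed that score most closely over 24 mice were Ctsw (r = 0.908), Cd160 (0.874) and Klre1 (0.849). Ctsw encodes cathepsin W, a protease of natural killer and CD8 T cells, Cd160 a receptor of the same cells, and Klre1 a natural killer receptor. Other genes that followed it closely were G3bp2 (0.840), Itgb7 (0.834), Tnfrsf14 (0.827) and Tec (0.820). With the means of the 8 combinations subtracted the closest were Syne4 (0.811), Fgl2 (0.799), Lat2 (0.798), Myo1f (0.796), Gpr65 (0.789), Ctsw (0.780), H2-Aa (0.779) and Cd52 (0.772). Ctsw was the gene in both sets. Each gene here was represented by its brightest tested probe.

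Related genes chosen by function showed a mixed picture. Of 22 tested natural killer receptors and adaptors other than the members, 7 were higher in AIRmax and 2 lower, where 6.33% and 6.97% of all genes were at their brightest probe. Their median difference was 0.08. Klre1 was higher by 0.49 ± 0.11 (adjusted p = 0.00459) and the Fc receptor chain Fcgr3 by 0.73 ± 0.17 (adjusted p = 0.00857), although Fcgr3 is also carried by myeloid cells. Hcst, which encodes the adaptor DAP10 that transmits NKG2D signals, was higher by 0.44 ± 0.13 (adjusted p = 0.029). Cd160 (0.39), Klrg1 (0.34), Cd226 (0.30) and Klrb1c (0.15) were higher too. Klrb1c encodes the NK1.1 antigen of some mouse strains. The signalling adaptor Sh2d1b1, or EAT-2, was lower, at -0.44 ± 0.11 (adjusted p = 0.0103), and so was the receptor Cd96, at -0.25 ± 0.07 (adjusted p = 0.0159). A sequence variant under a probe can differ between lines, and this was not tested for any gene here.

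Of 20 other cytotoxic effectors 4 were higher and 0 lower, where 6.33% and 6.97% of all genes were. Their median difference was 0.03. Ctsw was higher by 0.65 ± 0.15 (adjusted p = 0.00835). Rab27a, which docks granules at the membrane and also works in other secretory cells, was higher by 0.61 ± 0.10 (adjusted p = 0.000368). Cst7, the granule inhibitor cystatin F, was higher by 0.25 and the death ligand Fasl by 0.25. The other effectors did not pass, among them Gzmm, the granzyme nearest to the threshold, at 0.19 ± 0.07 (adjusted p = 0.0861). Gzmk stood at -0.14, interferon gamma (Ifng) at -0.02 and the chemokines Ccl3 and Ccl4 at -0.04 and 0.14. Gzmc, Gzme and Gzmg were at or below background on all arrays, as Gzmb was.

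**Figure D4:**
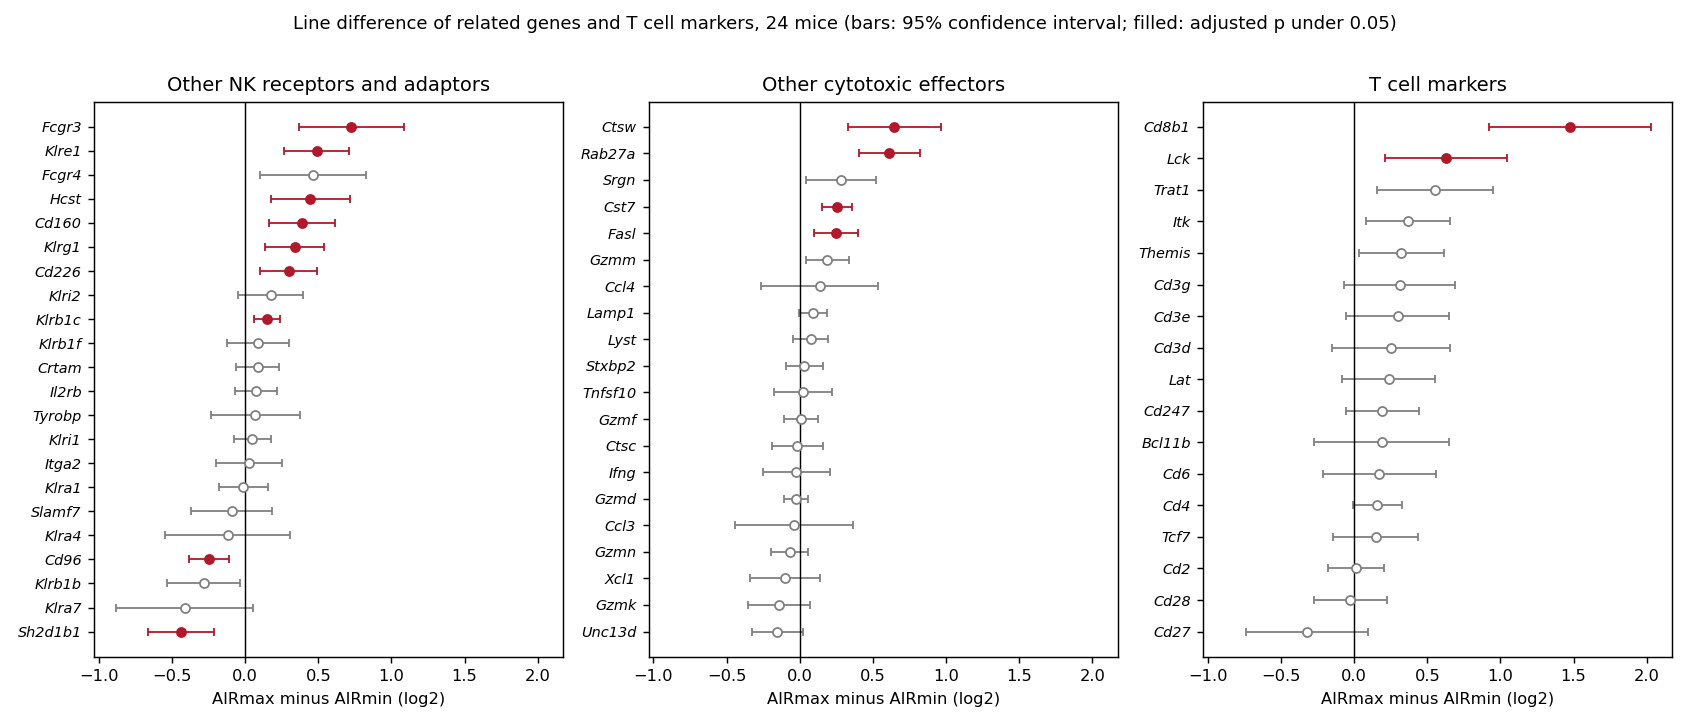
AIRmax minus AIRmin difference (x axis, log2) over 24 mice with 95% confidence intervals for 22 other natural killer receptors and adaptors, 20 other cytotoxic effectors and 17 T cell markers. Filled points passed an adjusted p of 0.05: 7 receptors, 4 effectors and 2 T cell markers lie to the right of 0, and Sh2d1b1 and Cd96 to the left.

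Upstream of these genes, the factors and cytokines that drive natural killer cells mostly did not pass. None of 9 transcription factors passed, and 2 had an unadjusted p under 0.05 in limma. Nearest to the threshold were Zeb2, a factor of terminal maturation (-0.31 ± 0.10, adjusted p = 0.0581), and Ets1 (-0.13, adjusted p = 0.152). Runx3 was below background on all arrays. Of 14 activating cytokines and receptors 2 were higher in AIRmax and 0 lower, where 6.33% and 6.97% of all genes were. Jak3, the kinase of the common gamma chain, was higher by 0.34 ± 0.10 (adjusted p = 0.0269). Il18rap, a chain of the interleukin 18 receptor, was higher by 0.27 ± 0.08 (adjusted p = 0.0437). Il12a, a subunit of interleukin 12, was the gene of this list called between urethane and saline mice. It was lower in urethane mice over both lines, at -0.48 ± 0.08 (adjusted p = 0.00349), and in AIRmin, at -0.66 ± 0.11 (adjusted p = 0.00799). The median squamous score in AIRmin was -0.09 in urethane and 3.57 in saline mice, and the part of other tissues in the Il12a difference was not tested.

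Of the ligands, Raet1b, which NKG2D binds, was lower in AIRmax, at -0.61 ± 0.13 (adjusted p = 0.00479). Raet1a, Raet1d and Raet1e had probes but exceeded background on at most 1 array, and probes of this near-identical family can share signal. H2-T23, the Qa-1 molecule read by CD94, stood at 0.64 ± 0.26 (adjusted p = 0.112). Of 2 tested granzyme inhibitors, Serpinb6b was lower, at -0.36 ± 0.11 (adjusted p = 0.034) and Serpinb6a stood at -0.12 (adjusted p = 0.106).

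T cells share most of these transcripts. Of 17 tested T cell markers 2 were higher in AIRmax and 0 lower, where 6.33% and 6.97% of all genes were. Of the 17 markers, 15 were above 0, with a median of 0.23. Cd8b1, the beta chain of CD8, was higher by 1.48 ± 0.27 (adjusted p = 0.000992), by 1.37 ± 0.37 in urethane mice (adjusted p = 0.0496) and by 1.59 ± 0.37 in saline mice (adjusted p = 0.0159). The kinase Lck was higher by 0.63 ± 0.20 (adjusted p = 0.0441). The T cell receptor chain Cd3e stood at 0.30 ± 0.17 (adjusted p = 0.276), Cd4 at 0.16 and Cd2 at 0.01. The probe of Cd8a, the partner of Cd8b1, was below background on all 24 arrays, with a highest log2 signal of 7.59. Summed over the 17 markers, intensity ran from 20792 to 90926 in AIRmax urethane, 14952 to 43969 in AIRmax saline, 18942 to 33198 in AIRmin urethane and 19003 to 24540 in AIRmin saline mice.

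With the T cell score as a covariate, 4 of the 6 genes were called. Tbx21 differed by 0.53 (adjusted p = 0.00078), Ccl5 by 0.93 (adjusted p = 0.000765), Nkg7 by 0.51 (adjusted p = 0.0127) and Klrk1 probe 1 by 0.27 (adjusted p = 0.018). The calls of Klrd1 (0.34, adjusted p = 0.0967) and Prf1 probe 2 (0.27, adjusted p = 0.0995) ended. AIRmax urethane mouse 4 had the highest T cell score, 1.57, with a cytotoxic score of 0.26. The next T cell score was 0.73, in AIRmax saline mouse 11. Mouse 4 also had squamous, muscle and hepatocyte scores of 3.97, 2.40 and 6.85. How far this mouse sets the T cell adjustment was not tested. AIRmax saline mouse 9 had the lowest T cell score, -0.57, with a cytotoxic score of -0.40.

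**Figure D5:**
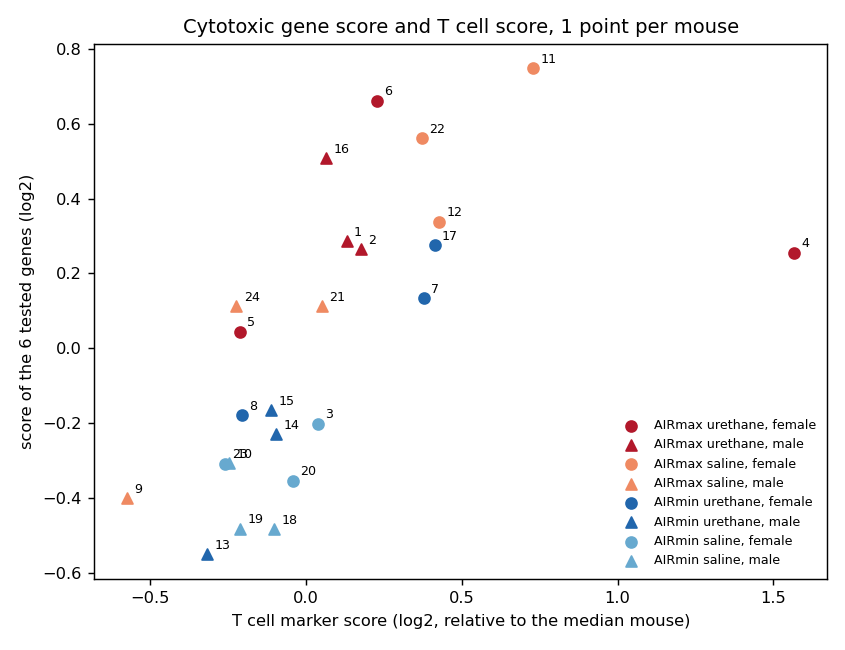
Score of the 6 tested genes (y axis, log2 relative to the median mouse) against the score of 17 T cell markers (x axis), 1 point per numbered mouse, females as circles and males as triangles. AIRmax mice other than mouse 9 lie at 0.04 or above on the y axis, and AIRmin mice other than mice 7 and 17 lie at -0.17 or below.

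Markers of other cells were compared in the same fit. Of all genes at their brightest probe, 6.33% were called higher in AIRmax and 6.97% lower, so 1 gene of a short list is near that share. None of 7 B cell markers passed, with 0 at an unadjusted p under 0.05 in limma and a median of 0.01, and Pax5 was below background. Of 9 neutrophil markers 4 were higher in AIRmax, led by the receptor Cxcr2 (1.97 ± 0.30, adjusted p = 0.000168), with summed intensities of 22090 to 164062 in AIRmax urethane, 43746 to 206424 in AIRmax saline, 20380 to 63839 in AIRmin urethane and 53144 to 80745 in AIRmin saline mice. Of 8 mast cell and basophil markers 4 were lower, among them Tpsb2 (-0.63 ± 0.11). Of 18 skeletal muscle genes 11 were lower, and 1 of 15 squamous genes. None of either list lay above 0, and the medians were -1.29 for muscle and -1.43 for squamous genes. In saline mice 12 of the 18 and 12 of the 15 were lower, with medians of -2.05 and -2.75. In urethane mice 0 of either list were lower, with medians of -0.59 and 0.02. Of 8 platelet markers 1 was higher, Itga2b (0.55 ± 0.14, adjusted p = 0.0161), and of 12 hepatocyte genes 1 was higher, Serpina1b (2.46 ± 0.55, adjusted p = 0.00595). Among 14 lung epithelial and endothelial genes 1 was higher, Pecam1, and 1 lower, Cldn18, with a median of 0.04. The part of these cells in the line difference of the cytotoxic genes was not tested beyond the fits with scores given here.

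Klrd1 and Klrk1 lie next to each other in the natural killer gene complex on chromosome 6, where mouse strains differ in gene content. Of the 5 measured genes on each side, 2 of 10 were also higher in AIRmax, Klre1 (0.49, adjusted p = 0.00459) and Klra17 (0.74, adjusted p = 0.0223). The same call was made for 6.33% of all genes at their brightest probe. Clec9a, Clec1a, Clec7a and Gabarapl1 before Klrd1, and Klri1, Klri2, Klrh1 and Klra4 after Klrk1, did not pass. Whether the called probes of this region read a sequence difference between the lines was not tested.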

How the data were processed

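All tests start from the intensities that the authors deposited in the series matrix, which are linear and cover 25697 probes on 24 arrays. Per the submitters' processing notes the authors used BeadStudio, with no version given. Per the file headers, there are also a non-normalized table and a quantile-normalized, filtered table from the authors, whose 72 per-array columns are named by slide position, match no label and were not used. Slide is therefore not available as a batch. Only their SYMBOL and PROBE_ID columns were read; these deposited columns hold names of other kinds. Sorted values differed by at most 0.871% between arrays, so the table was treated as already quantile normalized. Depth does not apply to arrays, and precision is limited by 24 arrays.

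Groups came from the sample titles, which number the mice, with no number shared between groups. Values were log2 transformed. The background limit (7.86) is the upper 0.01 quantile of a normal curve with mode 7.39 and SD 0.2036, and it stands in for the planned detection filter. Symbols were updated with RefSeq (GRCm38.p6); 20440 probes had a current and 4123 an updated symbol. limma 3.58.1 in R 4.3.3 was fitted with 8 means of line, sex and treatment (16 residual degrees of freedom, 3 mice each), with Benjamini-Hochberg adjustment over all 18922 tested probes. The code was tested on simulated data. Alternatives were an offset of 16, normexp, other filters, no sex term, a fit of the compared arrays and array weights. Others were a trended prior, brightest probes, scores as covariates, mouse 20 as male, and mice left out. The fit without the mice of high squamous score replaced the 8 means by terms for line, treatment, sex and the interaction of line and treatment.

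The genes and lists were chosen with earlier results of these data known. Named were all member probes, called genes of each list or the 2 nearest, the 8 genes most like the score in 2 ways, and 5 neighbours on each side of Klrd1 and Klrk1. Some of these are summarised as counts, and a few results are not reported here.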

Additional observations from a re-analysis of the deposited data

Results flagged for a closer look

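In 40 checks of the highest and lowest mouse of a group of 6, 4 values stood far from the others of their group, and chance flags about 1 in 20 such groups. Tbx21 in AIRmin urethane mouse 17 had a log2 signal of 8.915, and the next mouse had 8.499. Klrd1 in AIRmax urethane mouse 6 had 11.534, and the next mouse 10.805. Prf1 probe 2 had 9.445 in AIRmax saline mouse 11, where the next mouse had 8.992, and 9.166 in AIRmin saline mouse 23, where the next had 8.619. Mice 17 and 23 had squamous scores of 2.93 and 3.54, and mice 6 and 11 had -0.29 and -0.18. The part of other tissues in these values was not tested.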

How the results depend on the processing

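The line difference over all mice was called for all 6 tested genes at 1 probe or more, and for 5 at their brightest probe. It was called for 3 with the squamous score as a covariate, for 3 with the squamous, muscle and hepatocyte scores, and for 2 without the 10 mice of squamous score above 1, where Tbx21 and Ccl5 stayed called. In urethane mice 2 were called, with 1 on the authors' probe list, with the compared arrays alone, with no sex term, with array weights, without the mice of high squamous score and with the T cell score, and 0 with 3 scores. Leaving out each mouse gave 1 to 2, with 1 without AIRmax urethane mouse 1, 2, 4, 6 or 16 or AIRmin urethane mouse 7, 8 or 13. In saline mice 4 were called, with 2 on the authors' list, which holds no Tbx21 or Klrk1 probe, 2 with the squamous score, and 0 with 3 scores or without the mice of high squamous score, which left 1 AIRmin saline mouse. Female minus male gave 0 to 1 when each mouse was left out. The direction turned in a few probes that were not called. Without the mice of high squamous score Klrk1 probe 3 was -0.0144 over all mice, 0.0018 in urethane mice and -0.0306 in saline mice. Klrk1 probe 2 in urethane mice was 0.0250 with 3 scores, 0.0238 without those mice and 0.0143 with the T cell score, and -0.1364 to 0.02 with each mouse left out. Klrk1 probe 3 in urethane mice was -0.0990 to 0.0289 with each left out. With the squamous score Prf1 probe 1 was -0.0090 and Klrk1 probe 4 -0.0115 in saline mice, and Klrk1 probe 4 was -0.0045 with 3 scores. The causes were not tested. No paired analysis was possible because no mouse number is shared between groups. Klrk1 probe 4 exceeded background on 11 of 24 arrays, so its differences are measured least well.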
